A study of Mus musculus with 4 samples.

Results

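Trophoblast cells of mouse embryos reactivated from diapause were divided into states by 3 marker genes, Ctsll3, Cd52 and Adh1. The cells came from the library labelled Reactivated, whose sample label reads EDG9.5 with 30 h of E2. A cell was called trophoblast when it had at least 1000 unique molecular identifiers (UMIs, each standing for 1 captured RNA molecule), at least 5 of them from Gata2, Gata3, Tspan8, Cdx2, Rhox6, Rhox9, Hand1, Ascl2 and Elf5. That sum also had to exceed both the sum of Sox2, Tdgf1, Nanog and Fgf4 and the sum of Col4a1, Lamb1, Sparc and Srgn. Of the 677 cell barcodes in the library, 160 met this rule, against 14529 barcodes in the whole series. Members were thus chosen by measured UMIs of these genes, so their levels restate the choice. Cells with at least 2 UMIs of Ctsll3 and Cd52 together were called Ctsll3/Cd52 cells, cells with at least 5 UMIs of Adh1 were called Adh1 cells, and the remaining cells are called neither.

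The series holds 1 library of each stage, made from wildtype B6C3F1/J whole embryos pooled before dissociation with TrypLE and capture in BD Rhapsody microwells. The reference libraries used here are EDG7.5, EDG9.5 and E5.5, and each of the Reactivated, EDG7.5 and EDG9.5 stages pooled about 200 to 250 blastocysts flushed from the uterus. E5.5 pooled 50 embryos taken from implantation sites. The study concerns diapause and the days around implantation, as its title says, and the state comparison asks how uniform the trophoblast is after reactivation. With 1 library, cells are not replicates, so no test was made and no p-value is given. Intervals are exact 95% intervals that cover counting error only, and levels are shares of UMIs (CPM, a gene's UMIs per 1000000 UMIs of the state), not amounts per cell.

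In diapause, blastocysts wait in the uterus with little growth or division until the mother's hormones permit implantation, and development then resumes. The trophectoderm, the outer layer of the blastocyst, gives rise to the placenta: its polar cells form the extraembryonic ectoderm and ectoplacental cone, and its mural cells become giant cells. Ctsll3 encodes a member of the cathepsin L family of cysteine proteases, a family expanded in the rodent placenta. Cd52 encodes a small surface glycopeptide best known on lymphocytes, Adh1 an alcohol dehydrogenase that also oxidises retinol, and Msx1 a homeobox transcription factor.

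On mm10 coordinates, Ctsll3 lies at chr13:60798250-60802849 on the minus strand. BC051665, the named gene with the highest ratio in Ctsll3/Cd52 cells over neither cells below, lies 11885 bases away at chr13:60781887-60786364 on the same strand. Their longest transcripts were identical at 84.0% of 1359 aligned positions and shared 36 of the 1288 stretches of 50 bases in Ctsll3. Some of their reads could thus be split between them by the counting, and the share of such reads was not tested. The windows from 250 bases before to 50 after the start of both genes are shown because BC051665 had that highest ratio, with that of Adh1, the marker of another state, beside them. The sequences are from RefSeq on GRCm38.p6, at chr13:60802795-60803094 and chr13:60786315-60786614 on the minus strand and chr3:138277335-138277634 on the plus strand. Capitals mark matches to the motifs searched on both strands, namely the TATA box letters TATAAA, the GATA motifs AGATAA and TGATAA, the TEAD motif GGAATG and the TFAP2 motif GCCNNNGGC.
Ctsll3: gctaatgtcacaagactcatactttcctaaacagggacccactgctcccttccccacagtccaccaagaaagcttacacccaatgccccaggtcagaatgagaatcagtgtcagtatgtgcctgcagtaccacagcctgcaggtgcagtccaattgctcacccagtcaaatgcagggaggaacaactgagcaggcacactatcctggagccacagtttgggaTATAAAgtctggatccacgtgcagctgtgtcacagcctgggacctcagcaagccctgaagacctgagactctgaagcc
BC051665: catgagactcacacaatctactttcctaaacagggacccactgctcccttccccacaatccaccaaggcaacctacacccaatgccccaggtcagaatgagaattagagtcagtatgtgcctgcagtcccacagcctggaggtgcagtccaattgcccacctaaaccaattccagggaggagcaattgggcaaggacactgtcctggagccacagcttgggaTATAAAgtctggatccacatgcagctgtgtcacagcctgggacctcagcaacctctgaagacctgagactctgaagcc
Adh1: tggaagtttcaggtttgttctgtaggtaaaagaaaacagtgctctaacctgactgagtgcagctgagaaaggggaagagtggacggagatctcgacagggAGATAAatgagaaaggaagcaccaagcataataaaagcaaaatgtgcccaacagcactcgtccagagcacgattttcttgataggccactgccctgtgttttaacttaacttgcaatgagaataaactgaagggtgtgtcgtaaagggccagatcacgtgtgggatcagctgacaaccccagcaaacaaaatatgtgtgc
The Ctsll3 and BC051665 windows were identical at 86.0% of 308 aligned positions, and each held 1 TATAAA and none of the other motifs. The Adh1 window held 1 AGATAA and none of the others. Of 32851 promoter windows of the same length, 13.6% held TATAAA, 18.6% AGATAA or TGATAA, 14.7% GGAATG and 16.6% GCCNNNGGC. These matches describe the letters in these windows and say nothing of any factor.

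The Ctsll3/Cd52 rule alone took 46 of the 160 trophoblast cells (28.75%, Clopper-Pearson interval 21.9% to 36.4%). The Adh1 rule alone took 8 cells (5.0%, 2.18% to 9.61%), both rules took 5 cells, and 101 cells (63.1%, 55.1% to 70.6%) met neither. The 5 cells of both rules stayed out of the ratios and are described apart. The sums held 547850 UMIs in the Ctsll3/Cd52 cells, 46874 in the Adh1 cells and 1312098 in the neither cells, and the median cell had 11099.5, 5353.5 and 12029 UMIs. The Adh1 cells were therefore the shallowest, and a gene with 0 UMIs there could hold up to 64.0 CPM, against 5.48 CPM in the Ctsll3/Cd52 cells and 2.29 CPM in the neither cells. The median share of UMIs from mitochondrially encoded genes was 6.13% in the Ctsll3/Cd52 cells, 9.82% in the Adh1 cells and 6.22% in the neither cells, and its part in the differences below was not tested.

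Near the thresholds, 9 cells had 2 UMIs of Ctsll3 and Cd52 together, 7 had 3 and 10 had 1, while 33 had at least 10 and 99 had 0. For Adh1, 2 cells had 5 UMIs, 2 had 6, 1 had 4 and 3 had 3. The trophoblast sum was 5 UMIs in 3 cells and 6 in 4, with a median of 20, and 2 cells with a sum of 4 fell in no class. When each cell was thinned to 3000 UMIs before the states were assigned, 37 of 159 cells (23.3%) were Ctsll3/Cd52 cells, 6 (3.77%) Adh1 cells and 116 neither, and 0 met both rules. Some trophoblast genes outside the rule were present in all states: Eomes, a transcription factor of trophoblast stem cells, had 509 CPM in the Ctsll3/Cd52 cells, 469 in the Adh1 cells and 463 in the neither cells, and Krt18, a trophectoderm keratin, had 1845, 3904 and 1715 CPM in the same order. Others were not counted in every state. Of 18 genes of the polar trophectoderm and extraembryonic ectoderm, 3, 8 and 1 had 0 UMIs in that order, and the keratin Krt19 had 0 UMIs in the Adh1 cells.

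The Ctsll3/Cd52 cells held 2 unlike groups of cells, a split that was chosen after the values were seen. Ctsll3 was counted in 33 of the 46 cells, with 2 to 189 UMIs a cell and a median of 60, and the other 13 cells qualified by 2 to 6 UMIs of Cd52 with no UMI of Ctsll3. No neither cell had a UMI of Ctsll3, while 5 of 204 epiblast cells (2.45%, median depth 12568 UMIs) and 2 of 305 endoderm cells (0.656%, 14262 UMIs) of the same library had one. The part of free RNA in these counts was not tested. Cd52 had 275 CPM in the Ctsll3 cells, 203 CPM in the Cd52-only cells and 7.62 CPM in the neither cells, 10 of which had 1 UMI, beside 0.98% of epiblast cells and 0 of the endoderm cells. None of the 8 Adh1 cells had a UMI of either gene, and these values restate the rule. The plot of the state genes shows the Ctsll3 cells spread far beyond the threshold and the Cd52-only cells next to it.

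**Figure D1:**
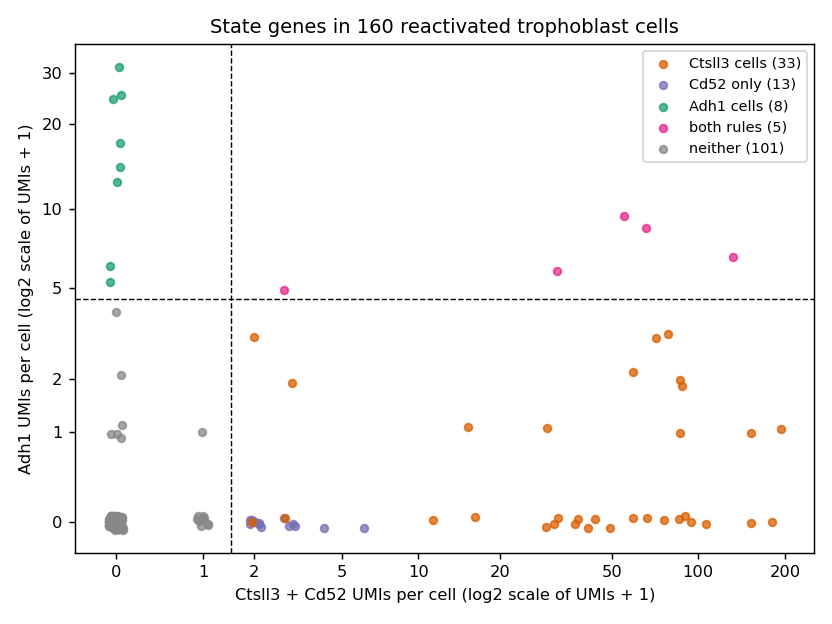
Each point is 1 of the 160 trophoblast cells, placed by its UMIs of Ctsll3 and Cd52 together (x) and of Adh1 (y), both on a log2 scale of UMIs + 1 with a small random shift, and coloured by state; dashed lines are the thresholds. The 8 Adh1 cells lie at 0 on the x axis, the 13 Cd52-only cells within 6 UMIs, and 33 cells have at least 10 UMIs.

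Msx1, the marker that took no part in the state rule, was counted in 8 of 46 Ctsll3/Cd52 cells, 6 of 8 Adh1 cells and 72 of 101 neither cells. It had 34.7 CPM in the Ctsll3/Cd52 cells, 1024 CPM in the Adh1 cells and 173 CPM in the neither cells. Within the Ctsll3/Cd52 cells, 18 of its 19 UMIs were in the Cd52-only cells (7 of 13 cells, 102 CPM) and 1 was in the Ctsll3 cells (2.7 CPM). With cells thinned to 3000 UMIs the share with a UMI was 4.44% of the Ctsll3/Cd52 cells, 75% of the Adh1 cells and 39.6% of the neither cells. Msx1 thus was nearly absent from cells with Ctsll3 at this depth, where 0 of 32 thinned Ctsll3 cells had a UMI, which allows a share of up to 10.9%, beside 3.92% of the epiblast cells (9.8% before thinning).

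H19, an imprinted long noncoding RNA expressed from the maternal allele, separated the same cells. Its UMIs were found in 14 of 33 Ctsll3 cells, 13 of 13 Cd52-only cells, 8 of 8 Adh1 cells and 98 of 101 neither cells. The level was 952 CPM in the Ctsll3 cells, 3747 CPM in the Cd52-only cells, 12587 CPM in the Adh1 cells and 5075 CPM in the neither cells, with a cell median of 0, 2944, 10227 and 4136 CPM. In the same library 77.7% of endoderm cells (376 CPM) and 15.7% of epiblast cells (16.8 CPM) had a UMI of H19. Of the trophoblast cells without H19, 19 were Ctsll3 cells, 4 met both rules and 3 were neither cells.

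Genes that promote G2 and mitosis were low in the Ctsll3 cells too, but lowest in the Adh1 cells, as the plot of H19 and these genes per cell shows. Summed over 28 such genes, the level was 1507 CPM in the Ctsll3 cells, 4691 CPM in the Cd52-only cells, 277 CPM in the Adh1 cells and 5385 CPM in the neither cells. Single Ctsll3 cells ranged between 103 and 3054 CPM, Cd52-only cells between 2287 and 7275 CPM, Adh1 cells between 0 and 665 CPM and neither cells between 0 and 12300 CPM. All states overlapped the neither cells, whose median was 4678 CPM. The neither cells within the range of the Adh1 cells had 0, 438, 577 and 580 CPM, and those at 0, 438 and 577 CPM had no UMI of H19.

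**Figure D2:**
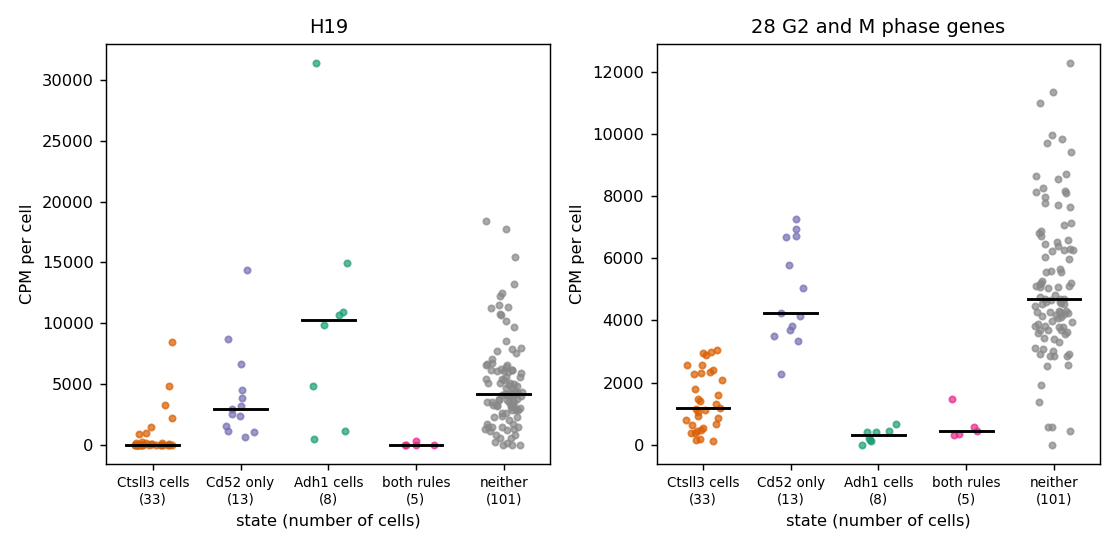
CPM per cell of H19 (left) and of 28 G2 and M phase genes summed (right) in the 5 groups of reactivated trophoblast cells, with 1 point a cell, a random sideways shift and a black line at the median. The H19 median is 0 in Ctsll3 cells and 10227 CPM in Adh1 cells, and the G2 and M phase median is 1175 CPM in Ctsll3 cells, 301 CPM in Adh1 cells and 4678 CPM in neither cells.

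In Ctsll3/Cd52 cells over neither cells, the neighbour of Ctsll3 led the higher genes. A gene is called past 2-fold when its log2 ratio, with 10 CPM added to both sides, is at least 1 in size among genes with at least 50 UMIs in both sums together. By this measure 263 of 4776 genes (5.51%) were higher and 243 (5.09%) lower in the Ctsll3/Cd52 cells. BC051665, that neighbour, had 2970 CPM in the Ctsll3/Cd52 cells, where 35 of 46 cells had a UMI, and 50.3 CPM in the neither cells, where 16 of 101 did, which makes it 59.0-fold higher (interval 46.2 to 76.7). It was counted in 33 of 33 Ctsll3 cells and 2 of 13 Cd52-only cells. BC053393, on chromosome 11, had 3225 CPM in the Ctsll3/Cd52 cells and 308 CPM in the neither cells. Both genes were concentrated in the cells with Ctsll3, since the Cd52-only cells had 79.1 CPM of BC051665 and 186 CPM of BC053393.

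Dmkn, which encodes the secreted protein dermokine, was 16.5-fold higher (12.5 to 21.9), with 752 CPM in the Ctsll3/Cd52 cells and 45.7 CPM in the neither cells. Slc40a1, the iron exporter ferroportin, had 139 CPM in the Ctsll3/Cd52 cells and 3.05 CPM in the neither cells, and none in the Cd52-only cells. Plac1, needed for normal growth of the mouse placenta, had 942 CPM in the Ctsll3/Cd52 cells and 89.2 CPM in the neither cells (10.6-fold, 8.63 to 13.0). A UMI of it was found in 33 of 33 Ctsll3 cells and 10 of 13 Cd52-only cells. Dppa1 had 610 CPM in the Ctsll3/Cd52 cells and 48.8 CPM in the neither cells.

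The other higher genes by the same rule were Hcrtr1, an orexin receptor, Hist1h2bc, a histone H2B gene, Serpinb9b, a serine protease inhibitor, Snap91, a clathrin assembly protein, Pla2g10, a secreted phospholipase, and Akr1b8, an aldo-keto reductase. Their levels lay between 106 CPM (Hcrtr1) and 287 CPM (Hist1h2bc) in the Ctsll3/Cd52 cells, against 1.52 CPM (Hcrtr1) and up to 27.4 CPM (Akr1b8) in the neither cells. Hcrtr1 rests on 58 UMIs in the Ctsll3/Cd52 cells and 2 in the neither cells. All 12 of the higher genes had more CPM in the Ctsll3 cells than in the Cd52-only cells, as the dot plot of these genes shows.

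Of the 12 named lower genes, Morc4 had 12.8 CPM in the Ctsll3/Cd52 cells and 155 CPM in the neither cells, with 0 UMIs in the Ctsll3 cells, and was 12.2-fold lower (5.80 to 30.7). Ly6a had 117 CPM in the Ctsll3/Cd52 cells and 565 CPM in the neither cells, and Ly6e, which in mice serves as the receptor of a placental fusion protein, had 16.4 and 106 CPM. Both genes were low in cells with Ctsll3, with 10.8 CPM of Ly6a and 16.2 CPM of Ly6e. Cyp51 and Sc4mol, which act on lanosterol and its products on the way to cholesterol, were 6.68-fold (3.82 to 12.8) and 4.85-fold (3.39 to 7.14) lower. Cdc20, the activator of the anaphase-promoting complex, had 42.0 CPM in the Ctsll3/Cd52 cells and 194 CPM in the neither cells. The remaining lower genes were Msx1, Crip1, Nup62cl, B3gnt7, Gsto1 and Adk, and they were 4.11-fold (Gsto1) to 7.46-fold (Nup62cl) lower.

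Taken apart, the Ctsll3 cells had 8.38% of 4547 genes past 2-fold higher and 12.6% lower than the neither cells. The 13 Cd52-only cells had 0.845% of 4143 genes higher and 5.29% lower. The counts past 2-fold higher therefore came from cells with Ctsll3 more than from cells with Cd52 alone, although the sums differ in depth (370902 and 176948 UMIs).

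**Figure D3:**
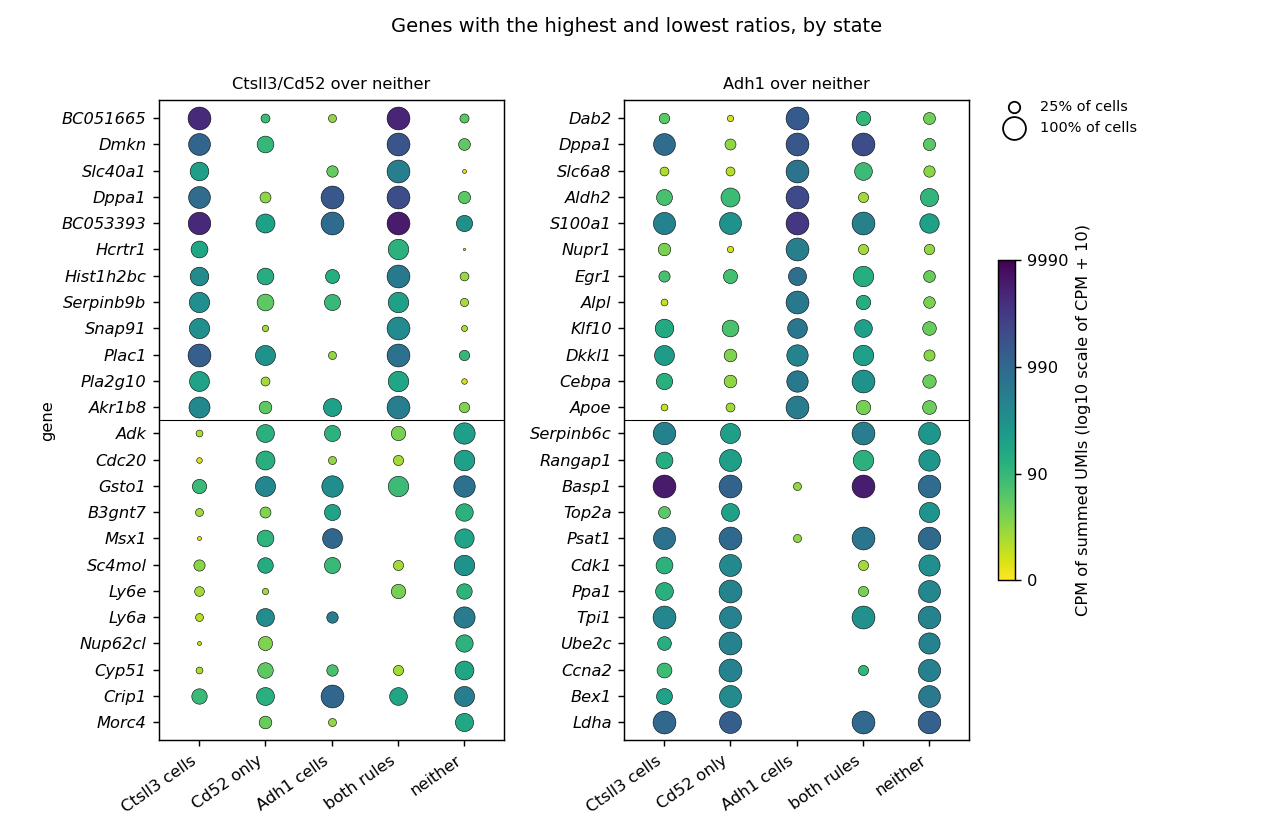
Genes with the 12 highest and 12 lowest ratios in Ctsll3/Cd52 cells over neither (left) and Adh1 cells over neither (right), with a column for each group of cells; colour is the CPM of summed UMIs on a log10 scale and dot area the share of cells with a UMI. On the left, BC051665 has 4349 CPM in Ctsll3 cells and 50.3 CPM in neither cells, and on the right Ldha has 0 UMIs in Adh1 cells and 1204 CPM in neither cells.

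Cells with Ctsll3 were themselves mixed. By a split chosen after the values were seen, 21 of the 33 had no UMI of Hand1, a transcription factor of giant cell differentiation that is part of the trophoblast rule, 8 had at least 5 UMIs and 4 had 1 to 4. The 8 cells with Hand1 had 2421 CPM of H19, 629 CPM of Cd52 in 7 of 8 cells and 3841 CPM of Ctsll3. Their 300 UMIs of H19 lay in 6 cells with a median of 6.5 over the 8, and cells with 158, 90 and 38 UMIs gave most of them. The 21 cells without Hand1 had 51.0 CPM of H19, from 10 UMIs in 4 cells, 71.4 CPM of Cd52 and 6310 CPM of Ctsll3. BC051665 had 2122 CPM in the cells with Hand1 and 5439 CPM in those without. Among the Ctsll3 cells, most UMIs of H19 thus came from a few cells with Hand1, and Ctsll3 lay in both groups.

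The Adh1 cells differed from the neither cells in more genes. Of 3954 genes, 9.26% were past 2-fold higher and 33.4% lower in the Adh1 cells, and the median log2 ratio of all genes was −0.53. Many of these genes are thinly covered, since a gene with 50 UMIs in both sums is expected to have 1.72 in the Adh1 cells. Among 466 genes with at least 500 UMIs, a minimum chosen after the values were seen, 4.94% were higher and 38.8% lower.

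Among the higher genes, the endocytic adaptor Dab2 had 1429 CPM in the Adh1 cells and 35.1 CPM in the neither cells, with 2 to 14 UMIs in every Adh1 cell and a UMI in 28 of 101 neither cells (40.8-fold, 27.6 to 60.7). Aldh2, the mitochondrial aldehyde dehydrogenase, had 2112 CPM in the Adh1 cells and 98.3 CPM in the neither cells. S100a1, a calcium-binding protein, had 3328 CPM in the Adh1 cells and 184 CPM in the neither cells. All 8 Adh1 cells had UMIs of these 3 genes. Dppa1 was again among the higher genes, with 1536 CPM in the Adh1 cells and 48.8 CPM in the neither cells.

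Slc6a8, the creatine transporter, was 30.8-fold higher (18.2 to 52.3), and Nupr1, a stress-response regulator, 24.0-fold (13.3 to 42.9). Alpl, the tissue-nonspecific alkaline phosphatase, was 20.1-fold higher (11.9 to 33.5) and Apoe, a lipid carrier, 15.4-fold (9.27 to 25.2), each with a UMI in 8 of 8 Adh1 cells. Egr1 and Klf10, transcription factors that respond quickly to growth signals, were 20.1-fold and 16.4-fold higher, and 1 cell gave 39% of the UMIs of each in the Adh1 cells. Dkkl1 and the transcription factor Cebpa were 18.4-fold and 15.7-fold higher. These 12 ratios all exceeded 15-fold.

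The 12 named lower genes in the Adh1 cells had at most 1 UMI there. Ldha, lactate dehydrogenase A, had 0 UMIs in the Adh1 cells and 1580 UMIs (1204 CPM) in the neither cells, and was at least 18.8-fold lower when 3 UMIs stand for the 0 over the Adh1 cells. The glycolytic enzyme Tpi1 was likewise at 0 UMIs and at least 6.89-fold lower. Among genes of the dividing cell, Ccna2 was at least 7.70-fold lower, Ube2c at least 7.28-fold, Cdk1 at least 4.94-fold and Top2a at least 4.26-fold, each with 0 UMIs in the Adh1 cells. Psat1, an enzyme of serine synthesis, had 1 UMI in the Adh1 cells and 1272 in the neither cells, a ratio of 45.4 (8.14 to 1796). Basp1 had 1 UMI in the Adh1 cells and 1147 in the neither cells. With at least 5 UMIs of Ctsll3 and Cd52 asked for, which moves 1 cell of both rules into the Adh1 cells, the log2 ratios of Basp1 and Serpinb6c were −0.47 and −0.95, short of 2-fold. The remaining 4, Bex1, the pyrophosphatase Ppa1, Rangap1 and Serpinb6c, had 0 UMIs and were at least 9.09-fold, 6.24-fold, 4.04-fold and 3.97-fold lower.

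Set directly against each other, Ctsll3/Cd52 cells over Adh1 cells had 33.8% of 2065 genes past 2-fold higher and 6.88% lower. Basp1, a membrane-associated signalling protein, had 4454 CPM in the Ctsll3/Cd52 cells, from 46 of 46 cells, and 21.3 CPM in the Adh1 cells, from 1 UMI. Krt19, a keratin of simple epithelia, had 845 CPM in the Ctsll3/Cd52 cells and 0 UMIs in the Adh1 cells, at least 13.2-fold higher, and Dmkn and Tmem37 were at least 11.8-fold and 7.67-fold higher. In the opposite direction, Gjb2, the gap junction protein connexin 26, had 3 UMIs in the Ctsll3/Cd52 cells and 48 UMIs, in 8 of 8 cells, in the Adh1 cells (187-fold lower, 60.3 to 939), and 0 UMIs in the neither cells. Mt1, a metallothionein, had 1522 CPM in the Ctsll3/Cd52 cells and 25131 CPM in the Adh1 cells, against 3287 CPM in the neither cells. Hes1, a Notch target, was 15.0-fold lower (9.20 to 24.6) in the Ctsll3/Cd52 cells than in the Adh1 cells.

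The 5 cells that met both rules had 4574 CPM of Ctsll3, 560 CPM of Adh1, 0 UMIs of Msx1 and 32.0 CPM of H19. They had 4942 CPM of BC051665, 5742 CPM of Basp1 and 944 CPM of Ldha, and none of Gjb2. For Msx1, H19, BC051665, Basp1, Ldha and Gjb2 these values were nearer to those of the Ctsll3 cells than to those of the Adh1 cells. Adh1 itself was not confined to its state, since 12 of 33 Ctsll3 cells (36.4%) had 1 to 3 UMIs of it, beside 7 of 101 neither cells (6.93%), 2.94% of epiblast and 0.984% of endoderm cells; in thinned cells the shares were 18.75% of the Ctsll3 cells and 2.97% of the neither cells.

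Groups of genes with known roles were then compared, each over neither cells, among members with at least 10 UMIs in both sums. By that minimum 5.83% of 8720 genes were past 2-fold higher and 4.33% lower in the Ctsll3/Cd52 cells, with a median log2 ratio of −0.08. In the Adh1 cells 15.5% of 7996 genes were higher and 31.9% lower, with a median of −0.35. The plot of gene list medians sets both comparisons beside these medians.

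Cholesterol synthesis was low in both states. In the Ctsll3/Cd52 cells 11 of 15 measured members were past 2-fold lower and 0 higher (median log2 ratio −1.58), and in the Adh1 cells 11 of 15 were lower and 1 higher (−1.55). The summed level was 416 CPM in the Ctsll3/Cd52 cells, 640 CPM in the Adh1 cells and 1410 CPM in the neither cells. Fdft1, squalene synthase, had 0 UMIs in both states and 25.2 CPM in the neither cells, a level below what 0 UMIs allow in the Adh1 cells.

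Genes of the cell cycle were lower in both states and lowest in the Adh1 cells. Of 28 G2 and M phase genes, 16 were past 2-fold lower in the Ctsll3/Cd52 cells (median −1.08) and 26 in the Adh1 cells (−2.87), with 0 higher in either. In the Ctsll3 cells alone 24 of 28 were lower (−1.64, beside 9.86% of all genes), and in the Cd52-only cells the median was −0.28. Of 22 S phase genes, 6 were lower in the Ctsll3/Cd52 cells and 19 in the Adh1 cells. Ribosome biogenesis genes had 1 of 20 lower in the Ctsll3/Cd52 cells, near the share of all genes, and 15 of 20 in the Adh1 cells. Apart, 7 of 20 were lower in the Ctsll3 cells (median −0.88) and the median was 0.06 in the Cd52-only cells.

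For glycolysis, 1 of 18 members was past 2-fold lower and 2 were higher in the Ctsll3/Cd52 cells (median −0.04), whereas 12 of 16 were lower and 2 higher in the Adh1 cells (−1.85). Slc2a1, a glucose transporter, had 982 CPM in the Ctsll3/Cd52 cells, 128 CPM in the Adh1 cells and 309 CPM in the neither cells. The 2 higher members in the Adh1 cells were Hk2, a hexokinase, with 448 CPM there and 134 CPM in the neither cells, and Slc2a3, another glucose transporter, with 1067 and 425 CPM. Of 38 oxidative phosphorylation genes encoded in the nucleus, 0 were past 2-fold in the Ctsll3/Cd52 cells, and 12 were lower and 1 higher in the Adh1 cells, a share lower that is near that of all genes (31.9%).

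Lysosome genes were higher in both states, by 6 of 20 measured members in the Ctsll3/Cd52 cells (median 0.61) and 11 of 18 in the Adh1 cells (1.45), with 1 lower in each. Apart, 8 of 20 were higher and 1 lower in the Ctsll3 cells (0.83), and 0 of 18 were higher in the Cd52-only cells (0.03). The list summed to 13362 CPM in the Ctsll3 cells, 4171 CPM in the Cd52-only cells and 4170 CPM in the neither cells. Psap, the precursor of the saposins that activate lipid breakdown, had 6328 CPM in the Ctsll3/Cd52 cells, 3648 CPM in the Adh1 cells and 1501 CPM in the neither cells. Ctsc, a lysosomal cathepsin, had 960 CPM in the Ctsll3/Cd52 cells, 21.3 CPM in the Adh1 cells and 183 CPM in the neither cells. Gpnmb, a lysosomal glycoprotein, had 128 CPM in 4 of 8 Adh1 cells and 0 UMIs in the Ctsll3/Cd52 and neither cells. Immediate early genes had 12 of 13 members past 2-fold higher in the Adh1 cells (1.93) and 3 of 13 in the Ctsll3/Cd52 cells (0.59). Apart, 4 of 13 were higher and 1 lower in the Ctsll3 cells, and 0 were higher and 3 lower in the Cd52-only cells. Jund had 2347 CPM in the Adh1 cells and 288 CPM in the neither cells.

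Genes of giant cells and the ectoplacental cone were higher in the Ctsll3/Cd52 cells, where 4 of 7 measured members (Plac1, Ndrg1, Nr6a1 and Fosl1) were past 2-fold higher. Apart, 5 of 7 were higher in the Ctsll3 cells, and 1 of 7 was higher and 1 lower in the Cd52-only cells. In the Adh1 cells 2 of 7 were higher and 2 lower. Ndrg1 had 509 CPM in the Ctsll3/Cd52 cells, 597 CPM in the Adh1 cells and 145 CPM in the neither cells. Of the 24 genes on this list 13 are in the Reactivated file, and Prl3d1, Prl3d2 and Prl7a1, hormone genes of giant cells, are not among the genes it lists. Prl3d3, another, had 2 UMIs in 1 Ctsll3/Cd52 cell. Cytoskeleton and motility genes had 6 of 17 members higher in the Ctsll3/Cd52 cells, among them the actin-binding proteins Flna (252 CPM, against 0 in the Adh1 cells and 93 in the neither cells) and Cnn2 (984, 299 and 255 CPM in that order). Apart, 7 of 17 were higher and 2 lower in the Ctsll3 cells, and 0 of 15 were higher in the Cd52-only cells. In the Adh1 cells 1 of 15 was higher and 5 lower, again near the share of all genes. Genes of the polar trophectoderm and extraembryonic ectoderm had 1 of 15 higher and 3 lower in the Ctsll3/Cd52 cells, and 2 of 14 higher and 6 lower in the Adh1 cells. Esrrb, an orphan nuclear receptor of this layer, had 0 UMIs in both states and 66.3 CPM in the neither cells, near that limit of the Adh1 cells (64.0 CPM). Of 9 measured imprinted genes of placental growth, 1 was past 2-fold higher and 2 lower in each state. Besides H19, Igf2 had 122 CPM in the Ctsll3/Cd52 cells, 213 CPM in the Adh1 cells and 258 CPM in the neither cells, and Phlda2, a brake on placental growth, had 210 CPM in the Ctsll3/Cd52 cells, 0 UMIs in the Adh1 cells and 80.0 CPM in the neither cells.

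**Figure D4:**
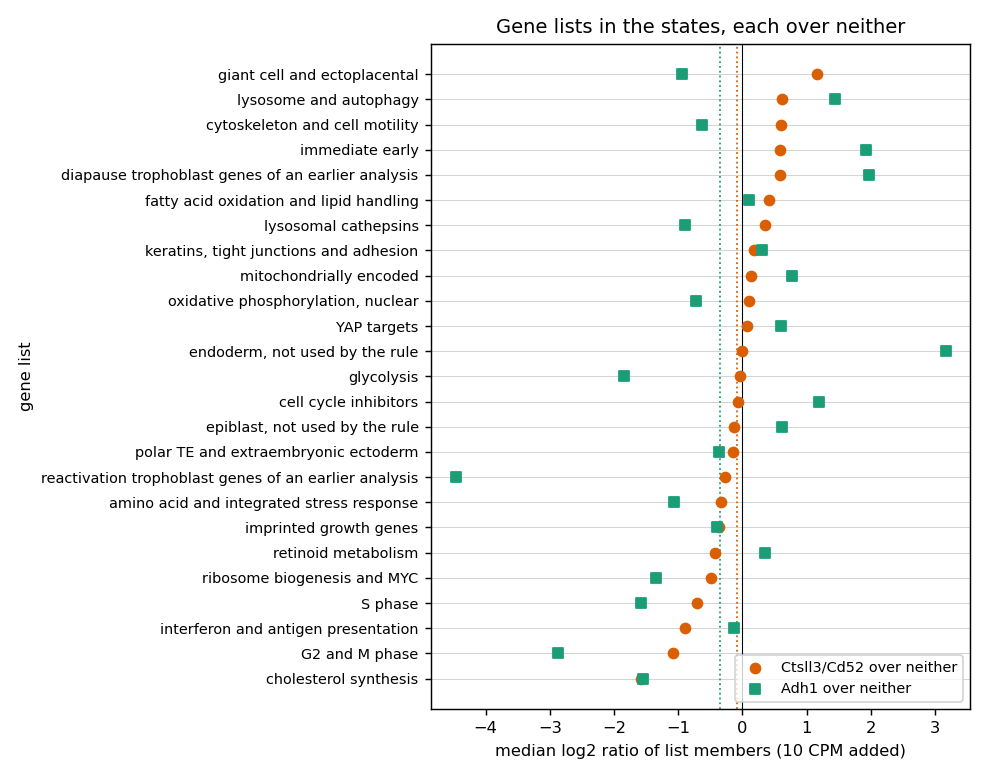
Median log2 ratio (10 CPM added) of the members of 25 gene lists in Ctsll3/Cd52 cells over neither (circles) and Adh1 cells over neither (squares); dotted lines are the medians of all genes measured, −0.08 and −0.35. Cholesterol synthesis lies at −1.58 and −1.55, G2 and M phase genes at −1.08 and −2.87, and glycolysis at −0.04 and −1.85.

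Markers of other cell types were counted in each state. The endoderm list, 16 genes that the rule did not use, summed to 100 CPM in the Ctsll3/Cd52 cells (0 to 655 CPM a cell), 2325 CPM in the Adh1 cells (1890 to 2944) and 127 CPM in the neither cells (0 to 769). In the Adh1 cells 10 of the 16, including Gata4, Sox17, Sox7, Pdgfra, Foxa2 and Ttr, were at 0 UMIs. All 5 measured members were past 2-fold higher, and Dab2 and Apoe gave most of the sum. The endoderm marker Gata6 was counted, with 128 CPM in the Adh1 cells, 3.65 CPM in the Ctsll3/Cd52 cells and 5.33 CPM in the neither cells. It had 244 CPM in the EDG9.5 trophoblast class. The trophoblast class had 1957 CPM of Dab2 in EDG7.5 and 2186 CPM in EDG9.5, and the part of endoderm RNA in the Adh1 values was not tested. An epiblast list of 14 genes summed to 1942, 3093 and 1929 CPM in the Ctsll3/Cd52, Adh1 and neither cells, with 5, 6 and 3 genes at 0, Pou5f1 and Prdm14 in all 3. An immune list summed to 115, 64.0 and 130 CPM, with 10, 14 and 12 of its 16 genes at 0, the defining genes Tyrobp, Cd74, Lyz2, Cd3e and Cd79a in all 3. Over 8 genes of a uterine epithelium list the sum was 34.7 CPM in the Ctsll3/Cd52 cells, 192 CPM in the Adh1 cells and 5.33 CPM in the neither cells, with 4, 7 and 3 genes at 0. The cytokine Lif gave most of it, with 27.4 CPM in 10 of 46 Ctsll3/Cd52 cells, 192 CPM in 5 of 8 Adh1 cells and 0 UMIs in the neither cells, while Esr1 was at 0 in all 3. An endothelium list summed to 115, 0 and 41.9 CPM, with 5, 9 and 4 of its 9 genes at 0, Kdr and Tek in all 3. Its member Cdh5, an endothelial cadherin, had 87.6 CPM in 12 of 46 Ctsll3/Cd52 cells, 0 UMIs in the Adh1 cells and 9.91 CPM in the neither cells. Lists for decidual stroma and erythroid cells summed to at most 3.81 CPM in any of the 3. The part of RNA from these cell types in the state values was not tested.

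To place the states between stages, genes were taken from E5.5 over EDG9.5 trophoblast, without the Reactivated library. The 50 genes with the lowest ratio, lower at E5.5, summed to 7226 CPM (7003 to 7455) in the Ctsll3/Cd52 cells, 26113 CPM (24670 to 27618) in the Adh1 cells and 2607 CPM (2521 to 2696) in the neither cells. In the other trophoblast classes the same genes had 34441 CPM at EDG7.5, 35099 CPM at EDG9.5 and 571 CPM at E5.5. Of the 50 genes higher at E5.5, 47 were in the Reactivated file, and these summed to 8415 CPM in the Ctsll3/Cd52 cells, 448 CPM in the Adh1 cells and 8654 CPM in the neither cells, against 408 CPM at EDG7.5, 563 CPM at EDG9.5 and 19337 CPM at E5.5 over the same 47 genes. By both sums the Adh1 cells lay nearer to the EDG7.5 and EDG9.5 values than to E5.5, and the Ctsll3/Cd52 and neither cells lay between EDG9.5 and E5.5.

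The 8 Adh1 cells ranged between 19685 and 40453 CPM for the genes lower at E5.5, above every other trophoblast cell except 1 of the 5 cells meeting both rules, which ranged between 9693 and 24836 CPM. In the genes higher at E5.5 the Adh1 cells reached at most 981 CPM and the neither cells were at least 3075 CPM, so these groups did not overlap. The Ctsll3 cells summed to 9747 CPM and the Cd52-only cells to 1944 CPM of the genes lower at E5.5. BC053393 gave 48.0% of the Ctsll3 sum, and without it the sums were 5071 CPM in the Ctsll3 cells, 25217 CPM in the Adh1 cells and 2299 CPM in the neither cells. Gene by gene, 41 of 42 measured genes lower at E5.5 were past 2-fold higher in the Adh1 cells than in the neither cells. Their median log2 ratio was 3.79, and 15.5% of all genes were higher. In the Ctsll3/Cd52 cells 15 of 36 were higher and 4 lower (0.73), beside 5.83% and 4.33% of all genes. Apart, 18 of 36 were higher and 4 lower in the Ctsll3 cells (0.98). In the Cd52-only cells 1 of 32 was higher and 8 lower (−0.64).

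**Figure D5:**
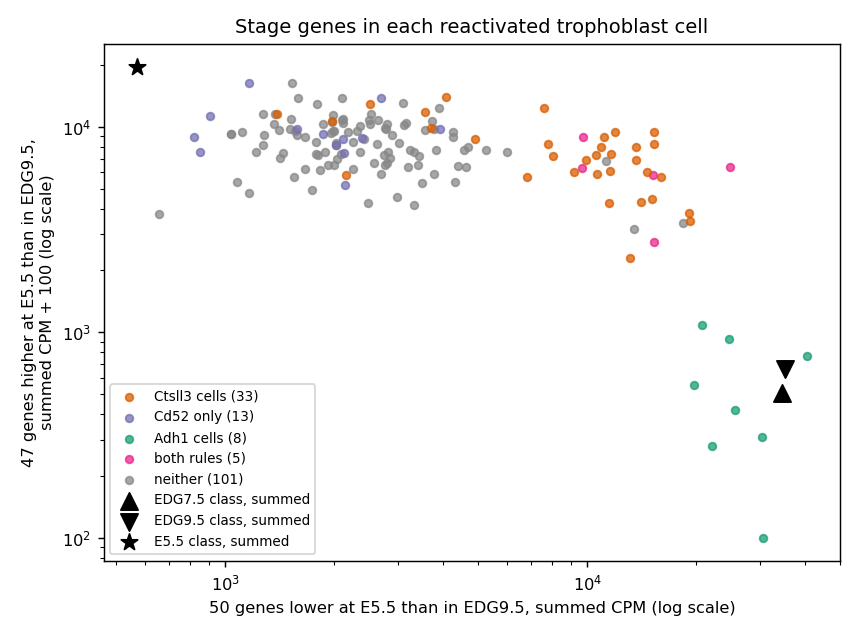
Each point is 1 trophoblast cell of the Reactivated library, placed by its summed CPM of 50 genes lower at E5.5 than in EDG9.5 (x) and of 47 genes higher at E5.5 (y, with 100 CPM added), both on log scales; black symbols are the summed trophoblast classes of the other libraries. The 8 Adh1 cells lie beside the EDG7.5 and EDG9.5 classes, and the E5.5 class lies at 571 CPM on the x axis.

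In the other libraries the states had unlike counterparts. By the same rule 552 of 589 EDG7.5 trophoblast cells (93.7%), 835 of 917 EDG9.5 cells (91.1%) and 1 of 3601 E5.5 cells were Adh1 cells, and at least 2 UMIs of Ctsll3 were found in 0, 1 and 1 cells. Over the whole class the level of Ctsll3 was 0 CPM at EDG7.5, 0.677 CPM at EDG9.5, 1165 CPM after reactivation and 0.236 CPM at E5.5. BC051665 had 124, 61.2, 1017 and 0.768 CPM in the same order, and Dmkn 36.2, 21.7, 292 and 1.89 CPM. These 3 genes were at their highest level in the Reactivated library among the 4 libraries. The choice of genes favours this, since Ctsll3 set the states of that library and BC051665 and Dmkn were named by their ratios in it. BC053393 had 1994, 1816, 1315 and 2.60 CPM, and Plac1 had 10.3, 15.1, 345 and 354 CPM, so Plac1 alone of these 5 genes was as high at E5.5 as in Reactivated.

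Genes high in the Adh1 cells were also high in the trophoblast of the EDG libraries. Over the class, the level of Adh1 was 5660 CPM at EDG7.5, 5566 CPM at EDG9.5, 104 CPM after reactivation and 1.30 CPM at E5.5, and Gjb2 had 1778, 1988, 25.9 and 0.473 CPM. Ldha, at 0 UMIs in the Adh1 cells, had 6.34, 28.7, 1132 and 1611 CPM in that order. In EDG9.5, where few trophoblast cells were neither, 6 of the 12 higher genes were past 2-fold higher in its Adh1 cells over neither (3.89% of all genes). Of the 12 lower genes, 10 were past 2-fold lower there (3.77%). In EDG7.5, 2 of 12 were past 2-fold higher (6.26%), and of the 6 lower genes measured 1 was past 2-fold lower (2.91%) and 1 higher. At E5.5, 173 of 3601 cells had at least 2 UMIs of Cd52. The median depth was 10966 UMIs in its Ctsll3/Cd52 cells and 8827 UMIs in its neither cells. Of the 12 genes lower in Ctsll3/Cd52 cells, 1, Morc4, was past 2-fold lower at E5.5 (0.875% of all genes), and the others were short of 2-fold. Of the higher genes 6 were measured there, and 2, Serpinb9b and Plac1, were past 2-fold higher (0.805%).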

How the data were processed

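RNA of single cells from whole embryos was counted in 4 libraries. The deposited values are whole-number counts per gene and cell barcode, made by the authors on mm10, and the submitters' processing notes name UMI-tools 1.0.1, featureCounts 1.6.4, Subread and STAR 2.7.1a. They were read as UMI counts. No source used here gives the annotation, the strand setting or the barcode filter, and without strand a gene and its antisense partner cannot be told apart. The files hold 9270833 UMIs in 677 barcodes for Reactivated, and 1, 3 and 8 of these barcodes also occur in EDG7.5, EDG9.5 and E5.5.

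States followed the rule above with no further filter. Scrublet in scanpy 1.11.5 called 1 doublet in the library and 0 in the trophoblast class, too few to show that it worked. UMIs were summed per state (python 3.11.15) and given as CPM with exact Poisson intervals; ratios have exact conditional binomial intervals and log2 ratios have 10 CPM added. Genes were named as the 12 highest and 12 lowest ratios (6 for Ctsll3/Cd52 over Adh1) among genes with at least 50 UMIs in both sums, 100 CPM in 1 and a UMI in 30% of the cells of the higher side, without genes of the rules, ribosomal protein, mitochondrially encoded, haemoglobin and predicted genes. From each of 32 gene lists the 3 most abundant members could be named, and other genes were chosen after their values were seen. 1 gene of the uterine epithelium list is not reported here. The class, states and lists were chosen with earlier results of these data known. TMM factors came from edgeR 4.0.16, and cells were clustered without 20 rule genes (2000 variable genes, 15 components, 10 neighbours, Leiden resolution 1). RefSeq promoter windows were found for 5 of 7 genes looked up. The calculations were tested on simulated data. Results were recomputed under 12 other settings, and under 2 more chosen after seeing the data.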

Additional observations from a re-analysis of the deposited data

How the results depend on the processing

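No paired analysis was possible because each stage has 1 library and the states share it. Of 840 values of named genes under the alternatives, 838 kept their direction and stayed past 2-fold. With at least 5 UMIs of Ctsll3 and Cd52, Basp1 and Serpinb6c in Adh1 cells over neither had log2 ratios of −0.47 and −0.95. These genes were picked for the extreme ratios of the same cells, and part of the 840 values could not change. The minimums of UMIs do not enter a gene's ratio, and Scrublet called 0 doublets in the class. Asking for Ctsll3 alone leaves Adh1 cells over neither as they were. Of the list medians and the medians of all genes, 991 values stayed within 0.1 or within the members' interval and 46 did not, and no median of at least 1 in size changed sign. With no minimum of UMIs the endoderm list in Adh1 cells over neither had a median of 0.00 in place of 3.17, as members at 0 in both sums then count, and 1.69 with 50 CPM added. With 50 CPM added the medians in Ctsll3/Cd52 cells over neither were −0.75 for G2 and M phase genes and −0.77 for cholesterol synthesis, in place of −1.08 and −1.58. Counts past 2-fold moved with several settings. In Ctsll3/Cd52 cells over neither, the 263 higher genes became 97 in thinned cells, 136 with 50 CPM added, 508 with a minimum of 10 UMIs and 28 with a minimum of 500. The 243 lower genes became 106, 43, 378 and 25 under the same changes, 389 with 1 CPM added, 568 with at least 5 UMIs for the state and 572 with Ctsll3 alone. In Adh1 cells over neither, the 366 higher genes became 74 in thinned cells, 226 with 50 CPM added, 1237 with 10 UMIs and 23 with 500, and the 1321 lower genes became 470, 782, 2550 and 181. In Ctsll3/Cd52 cells over Adh1 cells, the 698 higher genes became 177 in thinned cells, 1900 with 10 UMIs, 48 with 500 and 395 with at least 5 UMIs for the state, and the 142 lower genes became 33, 876, 9 and 77. That threshold left 30 Ctsll3/Cd52 cells in place of 46. The minimum of 500 UMIs and Ctsll3 alone were chosen after seeing the data. Thinning and higher minimums leave fewer genes; the cause of the other changes was not tested. TMM scaling moved the median log2 ratio of all genes in Adh1 cells over neither to −0.33 in place of −0.53. Depth limits the Adh1 cells most, since 3 UMIs there are 64.0 CPM.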

Other observations

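A few cells fell between the states. In 3 of the 101 neither cells no UMI of H19 was counted, a group chosen after the values were seen. They had no UMI of Ctsll3, but 2534 CPM of BC051665 and 5334 CPM of BC053393, against 21.6 CPM and 249.8 CPM in the 98 neither cells with H19. Basp1 had 2867 CPM in the 3 cells and 851 CPM in the 98. Their sums over the genes lower at E5.5 lay between 11285 and 18397 CPM. In a clustering without the genes of the rules, the cluster that held these 3 cells also held 26 of the 33 Ctsll3 cells and all 5 cells that met both rules, and no Cd52-only or Adh1 cell. The Adh1 cells had no cluster of their own. Of the 8, 6 lay in a cluster of 16 with 8 neither and 2 Cd52-only cells, and 2 lay in a cluster with 38 neither cells.

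The 8 Adh1 cells were not alike in Msx1 and H19. Of these cells 5 had 5 to 18 UMIs of Msx1 and 50 to 298 UMIs of H19, and 3 had 0 or 1 UMI of Msx1 and 2, 5 and 27 UMIs of H19. H19 summed to 17374 CPM in the 5 cells and 2286 CPM in the 3 cells. All 8 had UMIs of Dab2, Gjb2 and Aldh2.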
